A study of Mus musculus with 6 samples.

Results

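The genes described here encode motor proteins that carry cargo along axonal microtubules, and their RNA was measured in LARP1 immunoprecipitates of mouse dorsal root ganglia (DRG). They were taken as a list of 9 Ensembl identifiers paired with symbols; no measured value enters the list's rule, but it was drawn up with earlier results of these data known. All 9 were present among the 16976 identifiers of the count table, 13236 of them with any count at all. The genes were Kif5a (ENSMUSG00000074657), Kif5b (ENSMUSG00000006740), Kif5c (ENSMUSG00000026764), Klc1 (ENSMUSG00000021288), Kif1a (ENSMUSG00000014602), Kif1b (ENSMUSG00000063077), Dync1h1 (ENSMUSG00000018707), Dynll1 (ENSMUSG00000009013) and Dynlrb1 (ENSMUSG00000047459). Both groups came from wild-type mice and were precipitated with an antibody to the RNA-binding protein LARP1. The DRG of the injured group were taken after sciatic nerve injury, and those of the uninjured group without it. The labels state no time after injury, age, sex, strain or pooling of animals. Each group had 3 libraries, sequenced as barcoded, PCR-amplified nanopore cDNA.

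Kinesins and cytoplasmic dynein are the ATP-driven motors of fast axonal transport, which links the sensory neuron cell body in the ganglion to nerve terminals far away. Most kinesins move vesicles and organelles outward, whereas dynein returns endosomes and injury signals to the cell body. Kinesin-1 is built from heavy chains, which walk on the microtubule, and light chains, which bind cargo. Cytoplasmic dynein is built around a large heavy chain with motor activity, to which intermediate and light chains attach. LARP1 is best known for binding mRNAs that start with a C followed by a tract of pyrimidines, the terminal oligopyrimidine motif.

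Library totals were 116186 to 116608 counts without injury and 211337 to 211879 with it. Within a group, libraries differed almost only by sampling noise: the between-library variance of genes with 15 or more counts averaged 1.16 times (uninjured) and 1.12 times (injured) that of counting. They were therefore summed and treated as 1 sample per group, with 349027 uninjured and 634615 injured counts. The differences below thus have no replicate check, and injury and any batch effect of a group cannot be told apart. Levels are CPM, that is counts scaled to a common library total, of the summed groups with 95% exact Poisson intervals. Ratios of CPM, injured over uninjured, carry 95% exact Clopper-Pearson intervals. All intervals cover counting error only and hold no spread between animals. PCR reads without molecular identifiers are not independent molecules, so the intervals can be too narrow even for counting error. No input RNA or control precipitate was analysed here, so a level is an amount in the precipitate and not an enrichment. A lower level can reflect less RNA per cell, fewer cells of a type or less RNA held by LARP1, and these cannot be told apart. Marker genes of neurons, glia and other cells of the ganglion were not analysed here, since their identifiers could not be paired with symbols.

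The transcript starts of the motor genes are shown because the motif bound by LARP1 lies at the very 5′ end of an mRNA. RefSeq's promoter table (build GRCm38.p6) was matched by symbol. Before that, starts on the chromosome of Kif5b and starts without a full-length sequence were left out. The starts kept included 10 annotated starts for 7 of the genes, all but Kif5a and Kif5b. Whether the full table lists starts for Kif5a and Kif5b was therefore not checked. Each sequence runs from 10 bases before the annotated start to 20 bases from it onwards, and the capitals mark the first 5 transcribed bases. These lie at chr2:49619276-49619305 (plus strand, Kif5c), chr12:111758858-111758887 (plus strand, Klc1), chr12:110601385-110601414 (plus strand, Dync1h1), chr5:115300971-115301000 (minus strand, Dynll1) and chr2:155236523-155236552 (plus strand, the first of the Dynlrb1 starts).
Kif5c: aggcggggcaGAGGGgcgggcctggaggtg
Klc1: tggggcgggcGCGGCgccggcgacgccatt
Dync1h1: agcgggcgccGGTGGctgcagccagcgggc
Dynll1: gggcggggccGCGGGcgcagggcggggcct
Dynlrb1: ctgtccgtctCCACAaaggactgtgcgcag

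At 0 of the 10 motor gene starts did the transcript begin with C followed by at least 4 pyrimidines. Among all 32851 starts kept from the table, 2.51% had these letters, and among the 70 kept starts with a ribosomal protein symbol, 18.6%. Most ribosomal protein starts thus lacked these letters too. At a share of 2.51%, a count of 0 among 10 starts does not set the motor genes apart. Annotated starts need not be the cap sites used in DRG, and only the sense strand at the start was read, so this describes the letters in the annotation alone. The first Dynlrb1 start was the single motor gene start with C as its first base, against 16.3% of all starts kept. It also lay within a run of 5 pyrimidines that crosses the start. A run of at least 5 pyrimidines anywhere in the 30-base window was found at 2 of the 10 motor gene starts and at 46.4% of all starts kept.

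Comparing injured with uninjured precipitates asks which motor RNAs were more or less abundant with LARP1 after nerve injury. The kinesin-1 RNAs Kif5b, Kif5c and Klc1 were lower after injury, Dynll1 was higher, and the dynein heavy chain Dync1h1 stood at nearly the same level in both groups. The lowest ratio was that of Kif5b, at 0.462, and the highest that of Dynll1, at 1.63. All 9 genes passed the filter on low counts. In edgeR's quasi-likelihood test over 3158 genes, at a Benjamini-Hochberg threshold of 0.05, 4 motor genes were called lower (Kif5b, Kif5c, Klc1 and Kif1b) against 22.1% of all genes tested, and 1 was called higher (Dynll1) against 24.9%. This test compares the reads of 2 samples rather than the conditions, since its spread is that between libraries counted as 1 sample, so no p-value is given. With the libraries summed and a coefficient of variation of 0.2 assumed between animals, edgeR's exact test called Kif5b alone lower and 0 motor genes higher, and with 0.4 it called 0 in either direction, also at an unadjusted p under 0.05. By size alone, 3 motor genes were at least 1.5-fold lower (Kif5a, Kif5b and Kif1b), against 21.0% of genes tested, and 1 was at least 1.5-fold higher (Dynll1), against 30.0%. The median log2 ratio was -0.55 over the 9 genes and 0.08 over all genes tested, whose quartiles were -0.46 and 0.74. On the scale of the test, log2 ratios lay 0.07 below these values, and there 5 motor genes were at least 1.5-fold lower, with Kif5c and Klc1 added, against 23.5% of genes tested, and 1 was at least 1.5-fold higher, against 27.3%.

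**Figure D1:**
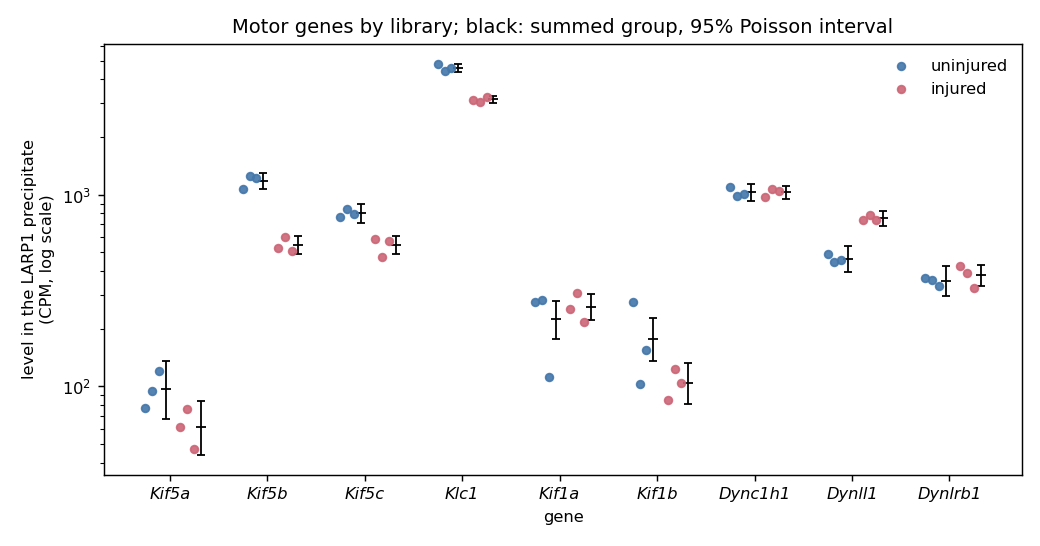
Level of each motor gene (CPM, log axis) in each of the 3 uninjured (blue) and 3 injured (red) libraries; black marks are the summed groups with 95% exact Poisson intervals. The libraries of the groups are apart for Kif5a, Kif5b, Kif5c, Klc1 and Dynll1 and overlap for the other genes; heights of different genes are not comparable, because transcript lengths were not used.

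Kif5b encodes the kinesin-1 heavy chain that most cell types express, and it had the largest difference of the 9 genes. Its uninjured libraries held 1067, 1252 and 1222 CPM and its injured libraries 529, 601 and 506 CPM. Every injured library lay below every uninjured library. In raw numbers the injured group held fewer Kif5b counts, 346 against 412, although it was the deeper group. Summed, this was 1180 CPM (1069 to 1300) in uninjured and 545 CPM (489 to 606) in injured DRG, which gave a ratio of 0.462 (0.399 to 0.534). Of the genes tested, 7.85% had a lower ratio than Kif5b.

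Kif5c encodes a heavy chain enriched in neurons. It was measured at 766, 840 and 792 CPM in the uninjured and at 585, 473 and 577 CPM in the injured libraries. Here too the groups did not overlap, and the injured level was the lower in all libraries. The ratio was 0.682 (0.581 to 0.801), from 799 CPM (708 to 899) to 545 CPM (489 to 606).

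Kif5a, the neuron-specific heavy chain mutated in hereditary spastic paraplegia, rested on few counts. Its uninjured libraries had 9, 11 and 14 counts and its injured libraries 13, 16 and 10. That corresponds to 77.4, 94.3 and 120 CPM without injury and to 61.4, 75.7 and 47.3 CPM with it. The libraries were apart, but the lowest uninjured and the highest injured one lay close together. The ratio of 0.631 had an interval of 0.388 to 1.03, so a difference was not resolved at this depth. Its RefSeq span overlaps that of Dctn2, a dynactin subunit gene, so reads of the pair may be shared by the estimation.

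Klc1 encodes a kinesin light chain, which links the heavy chains to vesicles. It had the most counts of the 9 genes and therefore the narrowest interval. Levels were 4835, 4434 and 4570 CPM in the uninjured and 3124, 3061 and 3255 CPM in the injured libraries. No injured library reached an uninjured one. Summed, Klc1 stood at 4613 CPM (4390 to 4844) in the uninjured and 3147 CPM (3010 to 3288) in the injured group, and the ratio was 0.682 (0.639 to 0.729). This ratio was nearly that of Kif5c. The RefSeq span of Klc1 overlaps Xrcc3, a DNA repair gene, and the table lists 15 curated Klc1 transcripts, which the deposited counts per gene do not separate. Long noncoding RNA genes overlap the spans of Kif5a (Gm40800), Kif5b (Gm41664), Kif5c (Gm46738) and Dync1h1 (Gm35558), so the same limit applies there.

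Summed over the 3 heavy chain genes, kinesin-1 took 2077 CPM (1929 to 2234) of the uninjured and 1152 CPM (1070 to 1239) of the injured precipitate, a ratio of 0.555 (0.500 to 0.615). The mix of heavy chains differed as well. Kif5b made up 56.8% of heavy chain counts without injury (95% Clopper-Pearson interval 53.1% to 60.5%) and 47.3% with injury (43.7% to 51.0%). By library its share ranged from 55.9% to 57.3% without injury and from 44.8% to 52.3% with it. Kif5c went the other way, from 38.5% (34.9% to 42.1%) to 47.3% (43.7% to 51.0%), with the same 346 injured counts as Kif5b. Kif5a held 4.69% (3.27% to 6.49%) and 5.34% (3.82% to 7.22%). These are shares of counts, not of molecules per length, and only their difference between groups is read.

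**Figure D2:**
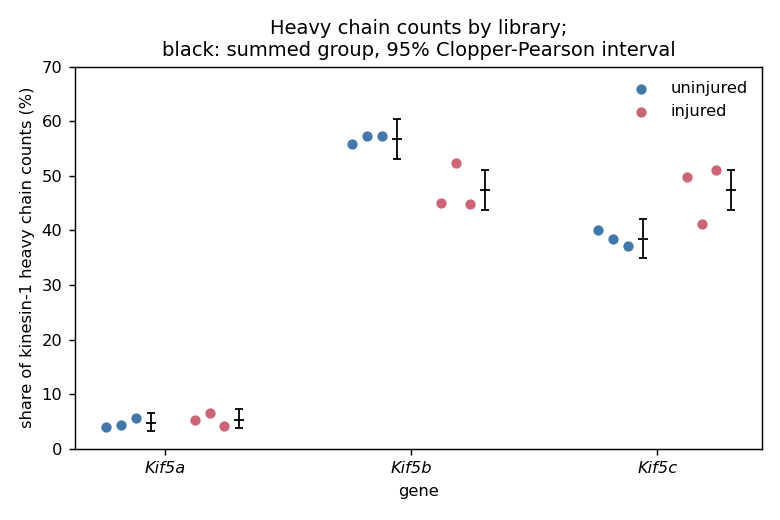
Share of the kinesin-1 heavy chain counts (%) that came from Kif5a, Kif5b and Kif5c in each uninjured (blue) and injured (red) library; black marks are the summed groups with 95% Clopper-Pearson intervals. The uninjured libraries give Kif5b 55.9% to 57.3% of the counts and the injured libraries 44.8% to 52.3%.

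Kif1a and Kif1b encode kinesin-3 motors, which carry synaptic vesicle precursors and dense-core vesicles, and for a Kif1b isoform mitochondria. These were the motor genes whose uninjured libraries agreed least. Kif1a was measured at 275, 283 and 112 CPM without injury and at 255, 308 and 218 CPM with injury. The third uninjured library was far below the others, and the groups overlapped. The variance between the uninjured libraries was 4.86 times counting noise. The ratio was 1.16 (0.884 to 1.54), and without the third uninjured library it was 0.931 (0.695 to 1.26), so no direction was resolved.

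Kif1b had 275, 103 and 155 CPM in the uninjured and 85.0, 123 and 104 CPM in the injured libraries. Its first uninjured library was the high one, the second lay within the injured range, and the variance between them was 5.12 times counting noise. The ratio was 0.585 (0.408 to 0.842). Without the first uninjured library it was 0.807 (0.517 to 1.29), and the gene was then no longer called. With any other library left out, the interval stayed below 1. The call for Kif1b was also lost with DESeq2, without a filter on low counts and without the first or the third injured library, at log2 fold changes of -0.77, -0.73, -0.66 and -0.78 against -0.84 in the reported fit. The intervals of Kif5b, Kif5c and Klc1 stayed below 1 with any 1 of the 6 libraries left out. Because the libraries of a group count as 1 sample, leaving 1 out removes reads and is no replicate check.

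Dync1h1 encodes the dynein heavy chain, the motor subunit for transport back to the cell body. It was present at 1093, 986 and 1016 CPM in the uninjured and at 977, 1069 and 1041 CPM in the injured libraries. The libraries of the groups were interleaved. The ratio was 0.998 with an interval of 0.876 to 1.14, so neither a higher nor a lower level was resolved. A 1.5-fold difference either way lies outside this interval, which covers counting error only. A difference of that size between conditions is thus not excluded. On the log2 scale of edgeR's fit the injured over uninjured value was -0.08.

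Dynll1 encodes the light chain LC8, which dimerises on the dynein intermediate chain and is also known as a binding hub for many proteins outside dynein. Its uninjured libraries were at 490, 446 and 456 CPM and its injured libraries at 736, 785 and 743 CPM. All injured libraries exceeded all uninjured ones, and the libraries within each group lay close together. Summed, Dynll1 was at 464 CPM (395 to 541) in uninjured and 755 CPM (689 to 826) in injured DRG, and the ratio was 1.63 (1.36 to 1.96). A lower ratio than this was found for 74.0% of genes tested.

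Dynlrb1 encodes a roadblock light chain, which also attaches to the dynein intermediate chain. It was at 370, 360 and 336 CPM without and at 425, 393 and 326 CPM with injury. The third injured library fell below all uninjured libraries and the other two lay above them. The ratio was 1.07 (0.861 to 1.34), so no difference was resolved.

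**Figure D3:**
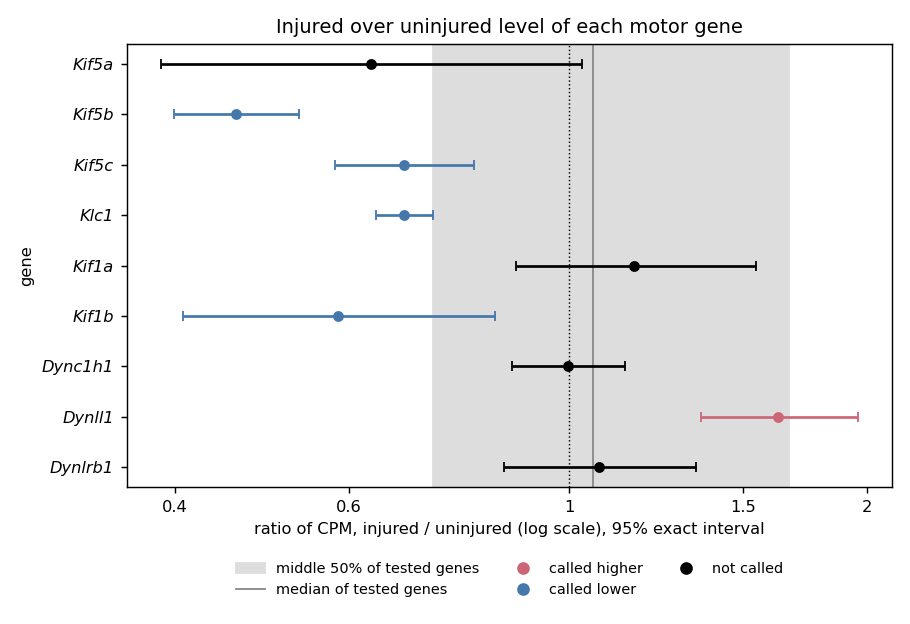
Ratio of CPM, injured over uninjured (log axis), for each motor gene with its 95% exact Clopper-Pearson interval; colours give the call of edgeR's test, the grey band spans the middle 50% of the 3158 genes tested and the grey line is their median. The 4 kinesin genes called lower lie left of the dotted line at 1, and Dynll1, at 1.63, lies right of it.

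Among the 9 motor genes, 5 had libraries that were fully apart between the groups. In 4 of these every injured library was below every uninjured one, against 23.1% of genes tested, and in 1 every injured library was above, against 32.4%. With 2 conditions the pattern of a gene is a single ratio. Between 123 (Kif5b) and 313 (Dync1h1) other tested genes lay within 0.1 log2 units of a motor gene's ratio, so none of these values singles out a motor gene.

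Ratios between motor genes were compared in 8 pairs, because gene length and library scaling cancel when the count ratio of a pair is divided between groups. The intervals are 95% exact conditional intervals, not adjusted for the number of pairs, and 5 of the 8 lay apart from 1. Relative to Kif5c, Kif5b was lower after injury. The count ratio of Kif5b to Kif5c was 1.48 without injury and 1.00 with it, an injured over uninjured value of 0.677 (0.544 to 0.843). By library it ranged from 1.39 to 1.54 without injury and from 0.877 to 1.27 with it. Kif5a could be told apart from neither of the other heavy chains, with values of 1.37 (0.820 to 2.28) against Kif5b and 0.925 (0.553 to 1.55) against Kif5c. Each of these intervals holds a 1.5-fold difference.

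The 3 heavy chains together were lower relative to their light chain Klc1 after injury, at 0.813 (0.718 to 0.920). This was not shared by each heavy chain. Kif5b had a CPM ratio of 0.462, whereas Kif5c and Klc1 both stood at 0.682, and Kif5a was not resolved. The summed counts of Kif5a, Kif5b, Kif5c, Kif1a and Kif1b were lower relative to Dync1h1. Kif5b and Kif5c gave 412 and 279 of the 865 uninjured counts in this sum, and Kif1a, with a CPM ratio of 1.16 against 0.998 for Dync1h1, did not share its direction. The count ratio of the sum to Dync1h1 ranged over libraries from 2.25 to 2.61 without injury and from 1.40 to 1.55 with it, a value of 0.613 (0.522 to 0.720). Within dynein, Dynll1 was higher relative to Dync1h1. Its count ratio lay between 0.449 and 0.452 in the uninjured and between 0.714 and 0.754 in the injured libraries, a value of 1.63 (1.30 to 2.05). For Dynlrb1 against Dync1h1 the value was 1.08 (0.831 to 1.40). The ratio of Kif1a to Kif1b was higher after injury by 1.99 (1.25 to 3.15), but without the first uninjured library it was 1.63 (0.910 to 2.89).

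**Figure D4:**
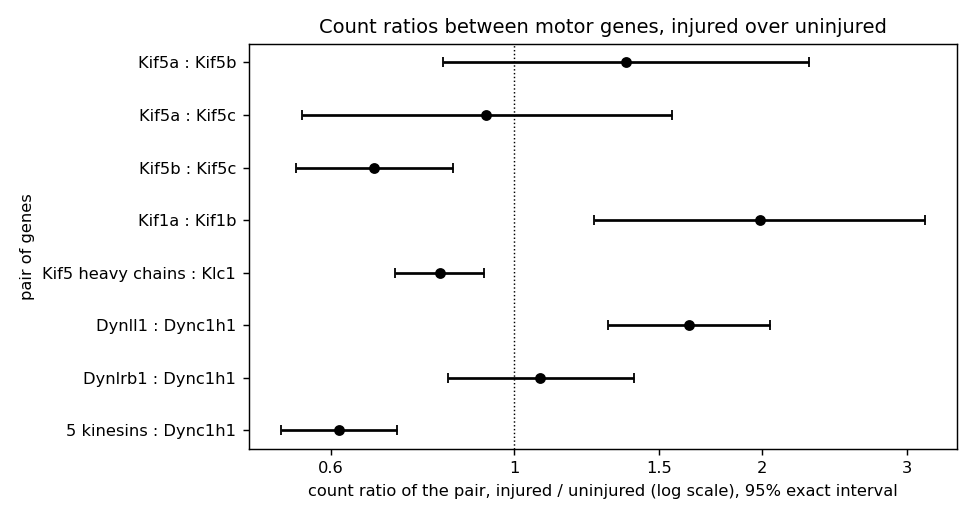
Count ratio of each pair of motor genes, injured over uninjured (log axis), with 95% exact conditional intervals; Kif5 heavy chains are Kif5a, Kif5b and Kif5c summed, and the 5 kinesins add Kif1a and Kif1b. Kif5b to Kif5c (0.677) and the summed 5 kinesins to Dync1h1 (0.613) lie below 1, and Dynll1 to Dync1h1 (1.63) lies above it.

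The 9 genes together held 8942 CPM (8631 to 9261) of the uninjured and 6828 CPM (6626 to 7034) of the injured precipitate, a ratio of 0.764 (0.729 to 0.800). Klc1 dominated this sum, and without it the ratio was 0.850 (0.797 to 0.908). For the 3 dynein genes alone, 1851 CPM (1711 to 1999) stood against 2165 CPM (2052 to 2283) after injury. Their ratio was 1.17 (1.06 to 1.29), and Dynll1 was the only dynein gene whose own interval lay above 1. The intervals of Dync1h1, at 0.998, and Dynlrb1, at 1.07, held 1, so the sum does not show dynein as a group to be higher. The 10 most abundant genes of the table took 13.1% of uninjured and 7.26% of injured counts, so CPM of the other genes share a larger remainder in the injured group. With those 10 genes left out of the totals, the ratio of Dynll1 was 1.52 and that of Kif5b 0.433.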

How the data were processed

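The authors deposited unnormalized estimated counts by Ensembl gene. Salmon and minimap2 on build GRCm39 (mm39) are named in the submitters' processing notes; their versions, the annotation and filters are not stated there. All values were whole. Salmon divides reads among similar or overlapping transcripts by estimation. Columns were matched to samples by library name, and groups and replicate numbers came from the titles. Nothing says that libraries came from separate animals.

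Counts were summed per group. All genes were fitted with edgeR (version 4.0.16, in R 4.3.3) by quasi-likelihood with TMM and filterByExpr. The fit was checked on simulated data with a spread near that between these libraries, so the check covers no spread between animals. All 9 members were named whatever their values. Members, lists and tests were chosen with earlier results of these data known. Lists of other motor, dynactin, adaptor and cell type marker genes were not analysed here: the gene table pairs 0 Ensembl identifiers with symbols. Alternatives tried were limma-voom (limma 3.58.1), DESeq2 1.42.0, other scalings, filters and depths, a replicate block, assumed spreads and leaving out each library.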

Additional observations from a re-analysis of the deposited data

How the results depend on the processing

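All 99 alternative ratios of CPM of the 9 genes and all 64 alternative pair ratios stayed within the counting interval of the reported value. The 4 lower and 1 higher motor genes became 1 lower (Kif5b) and 0 higher with an assumed coefficient of variation of 0.2 between animals, and 0 and 0 with 0.4, where edgeR's exact test on summed counts was used. With 0.2 the unadjusted p was under 0.05 for 1 lower and 0 higher motor genes, and with 0.4 for 0 and 0. Over all genes tested these settings called 305 higher and 176 lower, and 42 and 5; the spread between libraries was 3.57%. Leaving out 1 library gave 3 to 4 lower motor genes and 1 higher, beside 582 to 756 lower and 638 to 836 higher genes over all genes tested. With the replicate block, 750 genes were higher and 677 lower, and no call of a motor gene changed. Libraries with the same number deviated from their group means with correlations of 0.0094, 0.0031 and -0.03, so the numbers were not taken as pairs. Of 144 alternative fold changes, 14 lost their call, most of them under the assumed spreads, and 0 reversed one. Only motor genes called in the reported fit could lose or reverse a call. The fold changes of Kif1a, Dync1h1 and Dynlrb1, which were not called, changed sign in some settings. Depth limits Kif5a most, with 34 and 39 counts.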
